A study of Homo sapiens with 16 samples.

Results

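Genes of the Notch pathway and transcription factor oncogenes of T-cell leukaemia were followed in 8 human lymphoma and leukaemia cell lines, each with and without 2 drugs that act on chromatin. The genes were NOTCH1, NOTCH3, HES1, DTX1, TAL1, LMO1, LMO2, LYL1 and MYB, taken as the HG-U133A probe sets that the array's annotation ties to these symbols alone. Of the 9 genes, 8 had such a probe set, 14 probe sets in all, among 11963 genes and 22215 probe sets other than controls. DTX1, an E3 ligase that acts on Notch and is switched on by it, had none and was not analysed here.

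There were 16 arrays in 4 groups of n = 4, with 1 array per line and condition. The groups were treated and untreated lines of anaplastic large cell lymphoma (ALCL: Karpas 299, FE-PD, SU-DHL-1 and JB6), and treated and untreated T-cell lines (Jurkat, Molt-3, Molt-4 and CCRF-CEM). ALCL is a lymphoma of mature T-cell origin marked by CD30, and the T-cell lines derive from T-cell leukaemia. Treated cells received 1 µM 5-aza-2'-deoxycytidine, a DNA methyltransferase inhibitor, over 6 days. They also received 625 nM trichostatin A, a histone deacetylase inhibitor, for 24 hours, at a time that the labels do not give. The labels name no vehicle for the untreated cells, and no cells were given 1 drug alone. The labels name no separate cultures of a line, and Molt-3 and Molt-4 are known to come from the same patient, so p-values measure the spread between these lines.

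The cell type labels were checked against marker lists. Over 10 T-cell markers, the mean log2 value of an array was 7.30 to 7.67 in treated and 7.11 to 8.05 in untreated ALCL lines, against 7.92 to 8.57 in treated and 9.90 to 10.65 in untreated T-cell lines. Over 6 ALCL markers it was 9.48 to 11.22 and 10.87 to 11.87 in treated and untreated ALCL lines, against 6.62 to 7.09 and 6.16 to 6.54 in treated and untreated T-cell lines. The 28S ribosomal RNA control, averaged over its probe sets, stood at 10.73 to 11.78 on the treated arrays of 5 lines (Molt-3, Molt-4, JB6, FE-PD and SU-DHL-1). It was 8.30 to 9.24 on the other 3 treated arrays and 8.11 to 8.62 on the untreated ones. On all 8 treated arrays the SD of the values was lower (1.59 to 1.80, against 1.82 to 1.93 untreated). For ACTB, the signal near the 3' end less that near the 5' end, which reads RNA length, was -0.37 to 0.70 on treated arrays, against -0.65 to -0.29 on untreated ones. The part of these differences in the treatment results was not tested. A fit without the 5 lines with the 28S rise leaves Karpas 299 as the only ALCL line, beside CCRF-CEM and Jurkat, and called 6 of 11963 genes for ALCL treatment, none of them among the 8 genes or the lists.

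Notch receptors are cut after a ligand on a neighbouring cell binds them, and the freed intracellular part joins the DNA-binding protein RBPJ and a Mastermind protein to switch on genes such as HES1. Immature T cells depend on NOTCH1, and activating NOTCH1 mutations are common in T-cell acute lymphoblastic leukaemia. TAL1 and LYL1 are basic helix-loop-helix factors, and LMO1 and LMO2 are LIM-domain bridges that hold such factors in a complex with GATA factors. All 4 are switched on out of place in subsets of this leukaemia. MYB is a transcription factor of blood progenitors and immature T cells that is overactive in some of these leukaemias. CCRF-CEM is known for a deletion that puts TAL1 under the promoter of its neighbour STIL, and Jurkat for a small insertion upstream of TAL1 to which MYB binds.

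Because 1 of the 2 drugs inhibits DNA methyltransferases, which methylate CG sites, the stretch upstream of the start is shown for the genes whose values are described in most depth. The sequences are the 250 bases before the transcription start in RefSeq's GRCh38.p14 annotation, written along the gene's strand. An entry was used for 7 of the 9 genes (not LMO2 and DTX1). In MYB (chr6:135181058-135181307, plus strand) and NOTCH1 (chr9:136546049-136546298, minus strand), capitals mark each CG. In HES1 (chr3:194135898-194136147, plus strand), capitals mark GTGGGAA, the core letters of the RBPJ motif, whose first base lies at -85.
MYB: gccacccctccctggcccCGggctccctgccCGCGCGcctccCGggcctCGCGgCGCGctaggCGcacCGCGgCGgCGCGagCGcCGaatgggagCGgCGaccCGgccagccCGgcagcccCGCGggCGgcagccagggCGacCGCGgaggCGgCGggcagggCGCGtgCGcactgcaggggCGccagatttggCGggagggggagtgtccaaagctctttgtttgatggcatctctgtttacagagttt
NOTCH1: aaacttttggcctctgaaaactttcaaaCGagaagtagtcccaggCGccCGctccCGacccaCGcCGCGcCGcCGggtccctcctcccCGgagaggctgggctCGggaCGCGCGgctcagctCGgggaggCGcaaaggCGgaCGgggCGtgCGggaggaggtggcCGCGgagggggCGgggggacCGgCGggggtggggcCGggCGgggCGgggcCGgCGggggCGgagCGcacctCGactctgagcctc
HES1: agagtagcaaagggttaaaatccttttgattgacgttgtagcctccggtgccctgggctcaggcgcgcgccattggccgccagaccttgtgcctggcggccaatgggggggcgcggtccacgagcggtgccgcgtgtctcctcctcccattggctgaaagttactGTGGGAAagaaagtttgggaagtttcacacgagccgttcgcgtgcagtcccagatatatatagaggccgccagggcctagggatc
MYB held 34 CG and NOTCH1 33, more than 93.2% and 91.9% of 35116 RefSeq promoter windows of the same length, whose median was 11. HES1 held 18 (more than 63.2%), NOTCH3 28, the 2 windows of TAL1 24 and 14, LYL1 19 and LMO1 5. The letters GTGGGAA, searched on both strands, were in 5.43% of all windows and, among the 7 genes with an entry, in HES1. These letters are a description of the sequence. Methylation was not measured here.

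NOTCH1 encodes the receptor that drives T-cell commitment. All values are log2 RMA summaries, on which 1 unit is a factor of 2, and they compare arrays within 1 probe set only. Treated ALCL lines had 7.58 in FE-PD, 6.15 in JB6, 7.67 in SU-DHL-1 and 7.58 in Karpas 299, against 7.12, 6.90, 7.92 and 7.45 in the same lines untreated. In the T-cell lines the values were 7.57 in CCRF-CEM, 7.24 in Jurkat, 7.64 in Molt-3 and 6.81 in Molt-4 when treated, against 8.15, 8.04, 9.0 and 9.06 untreated. NOTCH1 was thus lower after treatment in each of the 4 T-cell lines, with no overlap between the groups, while the ALCL lines moved both ways.

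The fall in T-cell lines was 2.38-fold (log2 difference -1.25 ± 0.27 SE, limma adjusted p = 0.00596; a difference is called at an adjusted p below 0.05). The change was -0.58 in CCRF-CEM and -0.80 in Jurkat, whose treated arrays lacked the 28S rise, and -1.36 in Molt-3 and -2.25 in Molt-4, whose treated arrays had it. With CCRF-CEM and Jurkat alone the difference was -0.69 (adjusted p = 0.0633), so the call was lost. In ALCL lines the treatment difference was -0.10 ± 0.27 (adjusted p = 0.801). The difference between the 2 treatment effects, ALCL minus T-cell, was 1.15 ± 0.38 and was not called (adjusted p = 0.208). In these cultures, fewer cells of one kind and less RNA per cell cannot be told apart. Among T-cell markers, 8 of 10 also fell in treated T-cell lines, against 20.2% of all genes called lower. Their part in the result was not tested.

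Before treatment NOTCH1 averaged 7.35 ± 0.45 in ALCL lines and 8.56 ± 0.54 in T-cell lines (SD, n = 4 each). This log2 difference of -1.21 ± 0.31 stood at the threshold (adjusted p = 0.0499), and 11 of 17 alternatives ended the call (highest adjusted p 0.384). After treatment the means were 7.25 ± 0.73 and 7.31 ± 0.38 in ALCL and T-cell lines (difference -0.07 ± 0.35, adjusted p = 0.958). Untreated T-cell lines thus held the highest mean, and the other 3 group means lay within 1 SD of each other.

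NOTCH3, a second receptor of the family active in T-cell development, had 2 probe sets with little movement. On 203237_s_at the values lay between 8.06 and 8.41 in treated ALCL lines and 8.08 and 8.39 in untreated ones, and between 8.15 and 8.36 in treated and 8.04 and 8.13 in untreated T-cell lines. The treatment difference was 0.04 ± 0.12 in ALCL lines (adjusted p = 0.848) and 0.18 ± 0.12 in T-cell lines (adjusted p = 0.252), although all 4 T-cell lines were higher when treated. After quantile normalization of the arrays the T-cell difference was called (adjusted p = 0.0316). The second probe set, 203238_s_at, ran from 6.43 to 7.65 over all 16 arrays, and its values did not follow those of the first (r = -0.019 over 16 arrays).

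**Figure D1:**
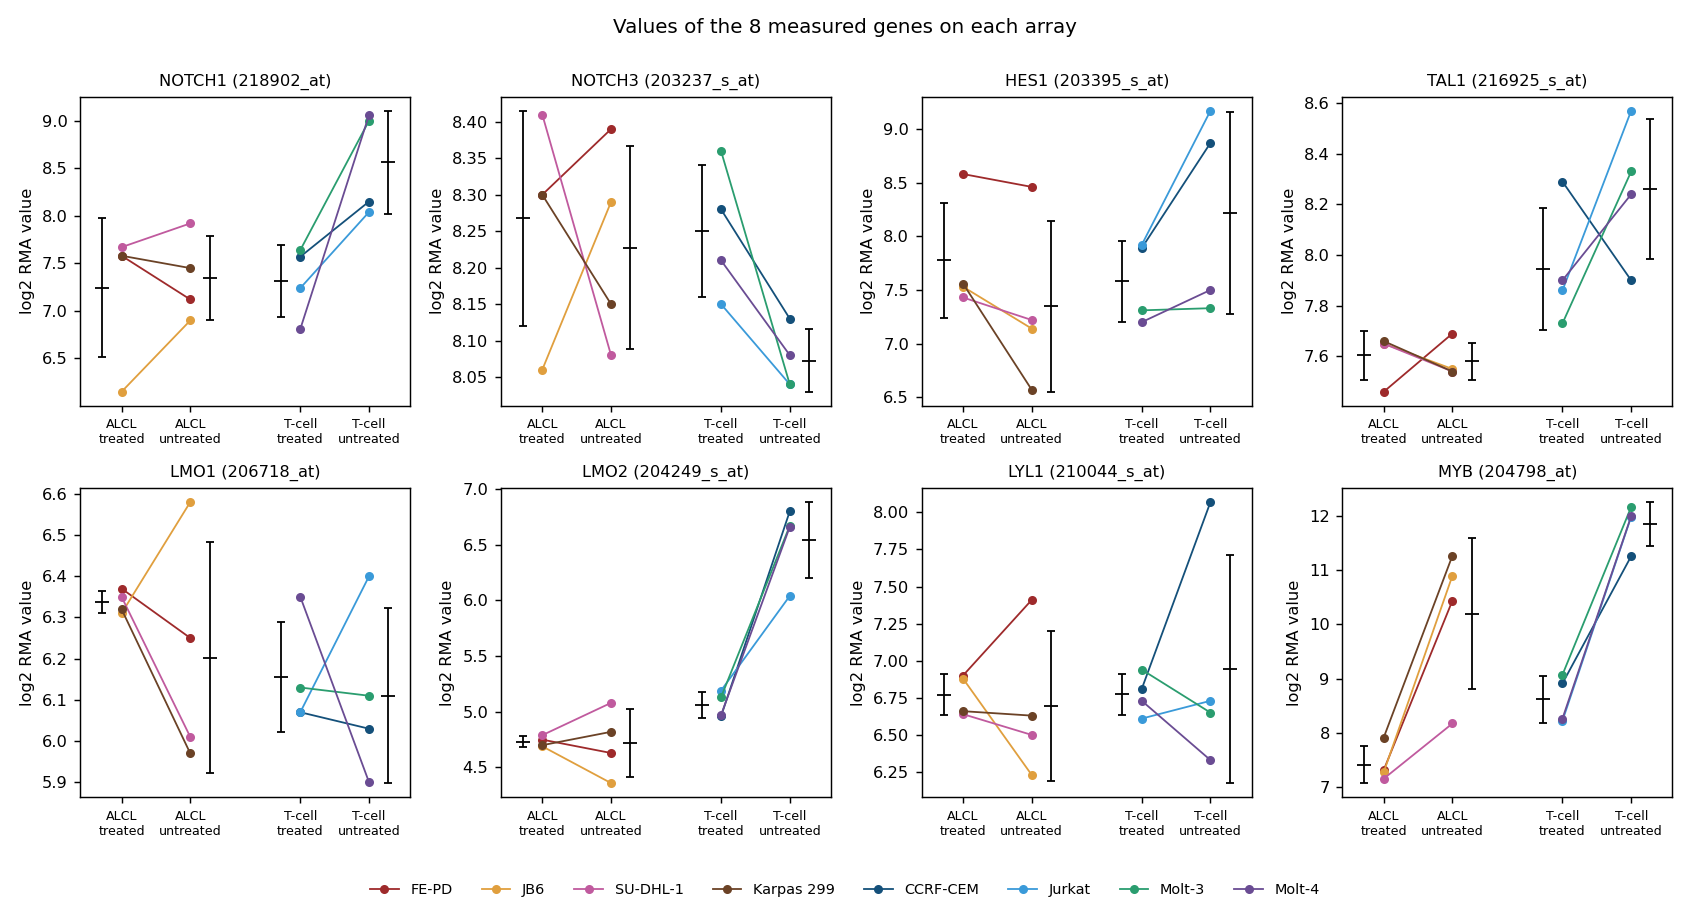
Log2 RMA value (vertical axis, own range in each panel) of the 8 measured genes on each array, for the probe set with the highest mean. Points are arrays, lines join the treated and untreated array of 1 cell line, and black bars are the group mean ± SD (n = 4). MYB lies lower in all 8 treated lines, NOTCH1 and LMO2 lie lower in the 4 treated T-cell lines, and LMO1 and NOTCH3 span less than 1 log2 unit.

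HES1, a repressor and the best known direct target of Notch, gave different pictures on its 3 probe sets. On 203394_s_at the treated ALCL lines had values of 8.82 in FE-PD, 7.98 in JB6, 7.52 in SU-DHL-1 and 6.71 in Karpas 299, against 7.68, 5.66, 5.57 and 5.73 untreated. The treated T-cell lines had 7.70 in CCRF-CEM, 10.18 in Jurkat, 8.64 in Molt-3 and 7.60 in Molt-4, against 7.36, 7.74, 5.91 and 6.03 untreated. All 8 lines were higher when treated, by 0.34 in CCRF-CEM to 2.73 in Molt-3.

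In a fit of every probe set, 203394_s_at rose 3.03-fold in ALCL lines (1.60 ± 0.36, adjusted p = 0.0155) and 3.41-fold in T-cell lines (1.77 ± 0.36, adjusted p = 0.00606). Of all probe sets, 18.3% were called in either direction for treatment in ALCL lines and 38.7% in T-cell lines. In 5 of 18 alternatives the ALCL call ended, 2 of which left out JB6 or SU-DHL-1 (highest adjusted p 0.741). The T-cell call ended in 2 of 18, without the line as a block and without the 5 lines with the 28S rise (highest adjusted p 0.172). The difference between the effects in ALCL and T-cell lines was -0.17 ± 0.51 (adjusted p = 0.937).

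On 203395_s_at, the HES1 probe set with the highest mean, treated ALCL lines had 8.58, 7.53, 7.43 and 7.56, against 8.46, 7.14, 7.22 and 6.57 untreated, with the lines in the same order as above. Treated T-cell lines had 7.89 in CCRF-CEM, 7.92 in Jurkat, 7.31 in Molt-3 and 7.20 in Molt-4, against 8.87, 9.17, 7.33 and 7.50 untreated. Here CCRF-CEM and Jurkat moved down while Molt-3 hardly moved, and all 4 ALCL lines moved up. The T-cell difference was -0.64 ± 0.21 (adjusted p = 0.0376), which ended as a call in 5 of 20 alternatives (highest adjusted p 0.283), such as leaving out Jurkat, CCRF-CEM or Molt-4. It turned to 0.47 when a gene's probe sets were averaged. The ALCL difference was 0.43 ± 0.21 (adjusted p = 0.174).

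In Jurkat, therefore, treatment changed one HES1 probe set by 2.43 and the other by -1.25. The third, 203393_at, lay between 4.73 and 5.45 on all arrays. Across the 16 arrays 203394_s_at and 203395_s_at correlated at r = 0.477. No direction is given for HES1 as a gene.

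**Figure D2:**
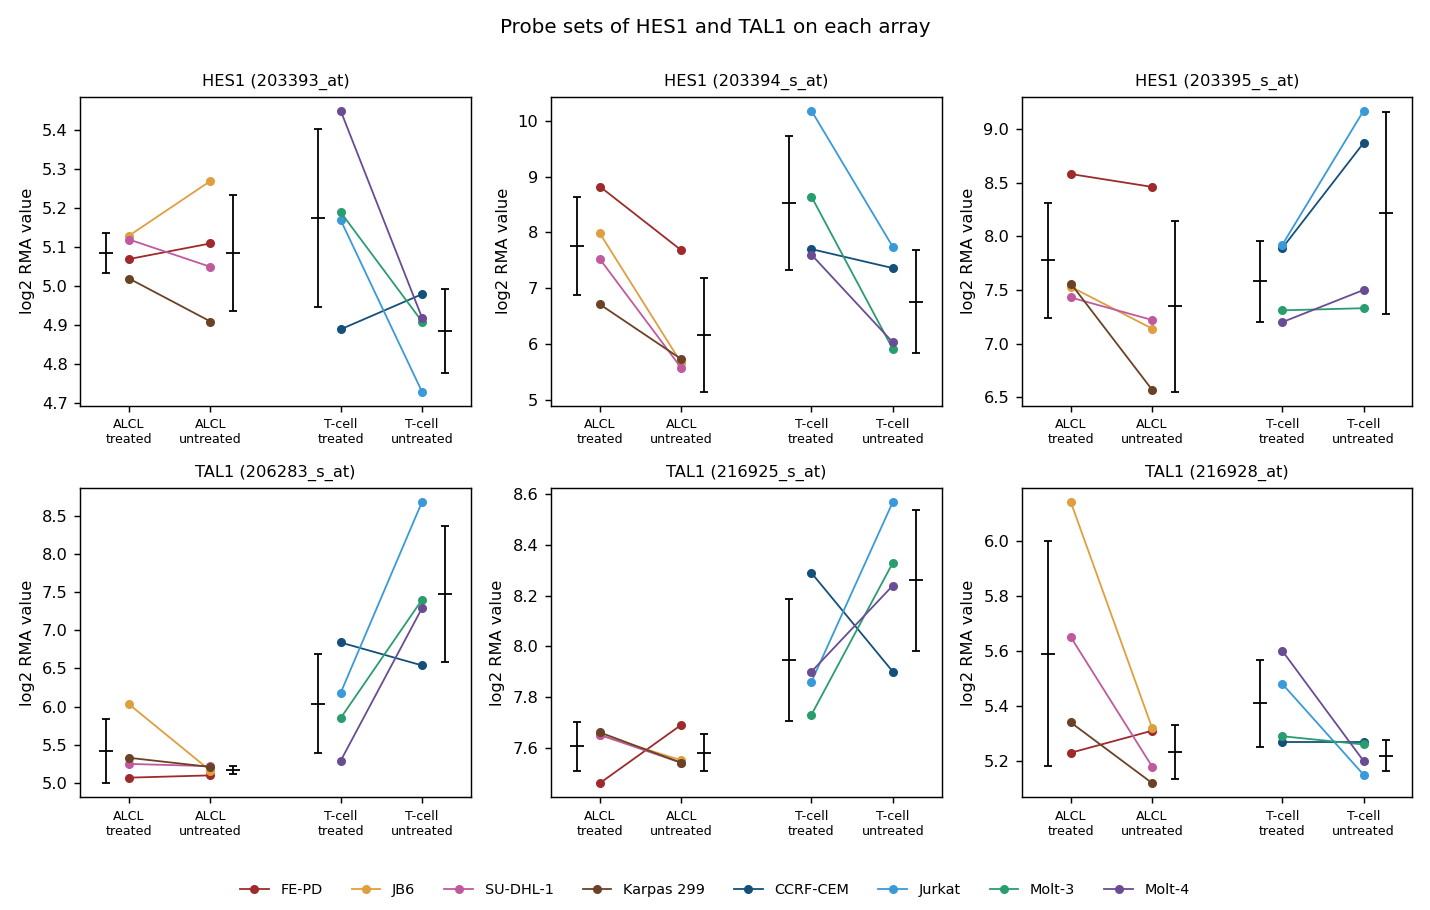
Log2 RMA value (vertical axis, own range in each panel) of the 3 probe sets of HES1 and the 3 of TAL1 on each array. Points are arrays, lines join the treated and untreated array of 1 cell line, and black bars are the group mean ± SD (n = 4). HES1 203394_s_at lies higher in all 8 treated lines, while 203395_s_at lies lower in treated CCRF-CEM and Jurkat and hardly moves in Molt-3. TAL1 206283_s_at is near 5.2 in untreated ALCL lines and 6.54 to 8.68 in untreated T-cell lines.

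TAL1 also depended on the probe set. On 206283_s_at the ALCL lines had 5.07 in FE-PD, 6.03 in JB6, 5.25 in SU-DHL-1 and 5.33 in Karpas 299 when treated, against 5.10, 5.16, 5.22 and 5.21 untreated. The T-cell lines had 6.84 in CCRF-CEM, 6.18 in Jurkat, 5.85 in Molt-3 and 5.29 in Molt-4 when treated, against 6.54, 8.68, 7.40 and 7.29 untreated. Treatment changed Jurkat by -2.50, Molt-3 by -1.55 and Molt-4 by -2.01, and CCRF-CEM by 0.30. CCRF-CEM was the highest treated line where Jurkat was the highest untreated one.

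In T-cell lines 206283_s_at fell 2.72-fold (-1.44 ± 0.37, adjusted p = 0.0162). This call ended in 5 of 17 alternatives (highest adjusted p 0.345), such as leaving out Molt-3, Molt-4 or Jurkat, or averaging Molt-3 and Molt-4. In ALCL lines the difference was 0.24 ± 0.37 (adjusted p = 0.662). The difference between the effects, ALCL minus T-cell, was 1.68 ± 0.53 and was not called (adjusted p = 0.213), where 1.23% of all probe sets were called in either direction. Without CCRF-CEM it was called (adjusted p = 0.0127). Before treatment this probe set was 4.95-fold lower in ALCL lines (-2.31 ± 0.39, adjusted p = 0.0130), where 7.31% of all probe sets were called. Without the lines with the 28S rise it was -2.40 and not called (adjusted p = 0.468). After treatment the difference was -0.62 ± 0.34 (adjusted p = 0.469), where 2.27% were called.

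The probe set of TAL1 with the highest mean, 216925_s_at, moved with the first (r = 0.935 over 16 arrays) over a narrower range. It averaged 7.60 ± 0.10 in treated and 7.58 ± 0.07 in untreated ALCL lines, and 7.94 ± 0.24 in treated and 8.26 ± 0.28 in untreated T-cell lines (SD, n = 4 each). Its T-cell treatment difference was -0.32 ± 0.17 (adjusted p = 0.159), and without CCRF-CEM it was -0.55 and called (adjusted p = 0.0190). Its difference between untreated ALCL and T-cell lines was -0.68 ± 0.14 (adjusted p = 0.0263), and 7 of 17 alternatives ended that call (highest adjusted p 0.674). The third, 216928_at, lay between 5.12 and 6.14, the highest in treated JB6.

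LMO2, the LIM-domain partner of TAL1, was the 1 gene of the 8 called for a different treatment effect in the 2 cell types. Its mean was among the lowest 40% of genes and its ALCL values were low before treatment, so whether a fall could be seen in ALCL lines was not tested. Treated ALCL lines had 4.75 in FE-PD, 4.69 in JB6, 4.79 in SU-DHL-1 and 4.70 in Karpas 299, against 4.63, 4.36, 5.08 and 4.82 untreated. Treated T-cell lines had 4.96 in CCRF-CEM, 5.19 in Jurkat, 5.13 in Molt-3 and 4.97 in Molt-4, against 6.80, 6.04, 6.67 and 6.66 untreated. The 4 treated T-cell lines all lay below the lowest untreated one, while the ALCL groups overlapped.

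LMO2 fell 2.78-fold in T-cell lines (-1.48 ± 0.17, adjusted p = 0.000321), and the call held in all 19 alternatives that gave a value (highest adjusted p 0.0488). In ALCL lines the difference was 0.01 ± 0.17 (adjusted p = 0.973). The effect in ALCL lines minus that in T-cell lines was 1.49 ± 0.24 (adjusted p = 0.0170). In 5 of 18 alternatives this call ended, such as without Molt-3, without Molt-4 and without the 5 lines with the 28S rise (highest adjusted p 0.582), while the difference itself lay between 1.22 and 1.69 in all 18. Untreated, LMO2 was 3.52-fold lower in ALCL lines (mean 4.72 ± 0.30, against 6.54 ± 0.34 in T-cell lines; difference -1.81 ± 0.21, adjusted p = 0.00205; -1.59 with adjusted p = 0.236 without the lines with the 28S rise). Treated, the means were 4.73 ± 0.05 and 5.06 ± 0.12 in ALCL and T-cell lines (SD, n = 4 each), and the difference of -0.33 ± 0.13 was not called (adjusted p = 0.248).

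LMO1, a close relative of LMO2, showed no such pattern. Its values were 6.31 to 6.37 in treated and 5.97 to 6.58 in untreated ALCL lines, and 6.07 to 6.35 in treated and 5.90 to 6.40 in untreated T-cell lines. The treatment differences were 0.14 ± 0.15 and 0.04 ± 0.15 in ALCL and T-cell lines (adjusted p = 0.539 and 0.822).

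LYL1 is a relative of TAL1. Treated ALCL lines had 6.90 in FE-PD, 6.88 in JB6, 6.64 in SU-DHL-1 and 6.66 in Karpas 299, against 7.41, 6.23, 6.50 and 6.63 untreated. Treated T-cell lines had 6.81 in CCRF-CEM, 6.61 in Jurkat, 6.94 in Molt-3 and 6.73 in Molt-4, against 8.07, 6.73, 6.65 and 6.33 untreated. Untreated CCRF-CEM was the highest array and changed by -1.26 when treated, whereas Molt-3 and Molt-4 were higher when treated. The treatment difference was 0.08 ± 0.27 in ALCL lines (adjusted p = 0.847) and -0.17 ± 0.27 in T-cell lines (adjusted p = 0.599), neither beyond the spread between lines.

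MYB had the largest treatment difference of the 8 genes in both cell types. On 204798_at the treated ALCL lines had 7.31 in FE-PD, 7.27 in JB6, 7.15 in SU-DHL-1 and 7.91 in Karpas 299, against 10.44, 10.90, 8.17 and 11.27 untreated. The treated T-cell lines had 8.91 in CCRF-CEM, 8.22 in Jurkat, 9.07 in Molt-3 and 8.26 in Molt-4, against 11.26, 11.99, 12.17 and 12.00 untreated. All 8 lines were lower when treated, with a change of -1.02 in SU-DHL-1, which started low, and of -2.35 to -3.77 in the other 7.

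MYB fell 6.88-fold in ALCL lines (-2.78 ± 0.39, adjusted p = 0.00120) and 9.45-fold in T-cell lines (-3.24 ± 0.39, adjusted p = 0.000350). The T-cell call held in all 20 alternatives (highest adjusted p 0.0209). The ALCL call was lost in Karpas 299 alone, assumed to vary as the T-cell lines do (-3.35, adjusted p = 0.102). The difference between the effects in ALCL and T-cell lines was 0.46 ± 0.55 (adjusted p = 0.782).

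MYB group means ran, from high to low, from untreated T-cell lines (11.86 ± 0.40) through untreated ALCL lines (10.19 ± 1.39) and treated T-cell lines (8.62 ± 0.44) to treated ALCL lines (7.41 ± 0.34; SD, n = 4 each). In treated cells MYB was 2.30-fold lower in ALCL lines (-1.20 ± 0.25, adjusted p = 0.0400), and 10 of 17 alternatives ended that call (highest adjusted p 0.831). In untreated cells the difference was -1.66 ± 0.63 (adjusted p = 0.146). The second probe set, 215152_at, lay between 3.49 and 4.61. It was lower in treated T-cell lines (-0.49 ± 0.13, adjusted p = 0.0194; not called in 5 of 17 alternatives, such as without Molt-3, Molt-4 or Jurkat, highest adjusted p 0.192) and differed by 0.06 ± 0.13 in ALCL lines (adjusted p = 0.768).

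**Figure D3:**
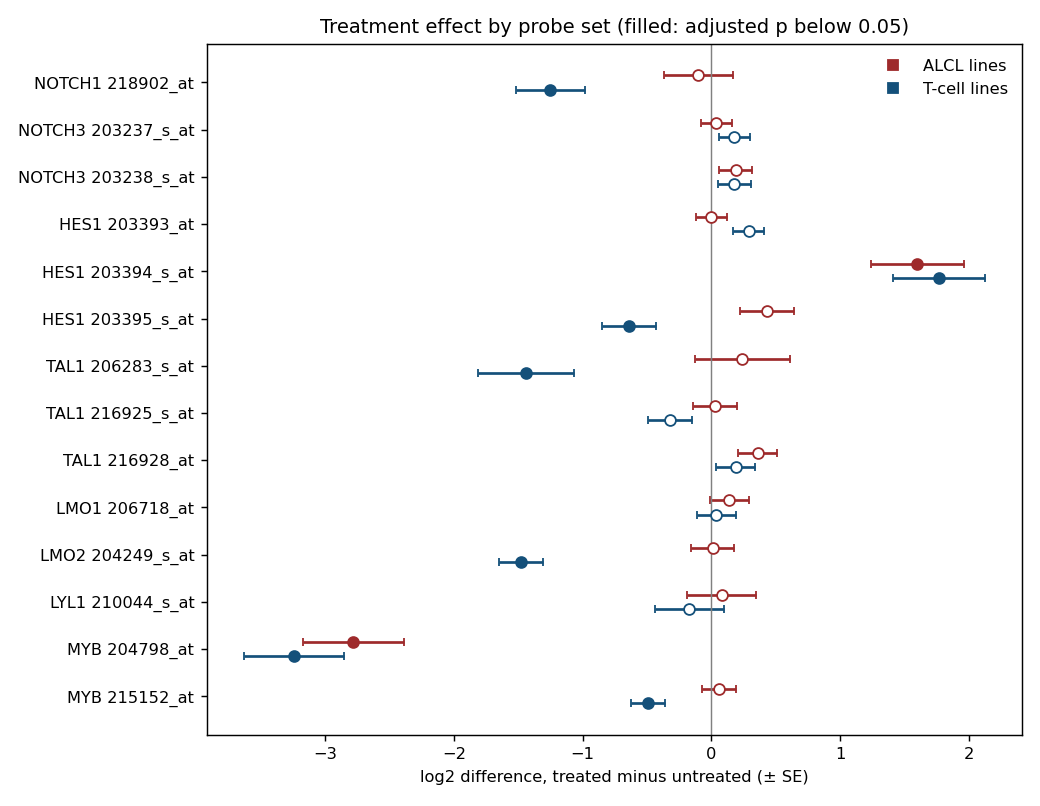
Treatment effect as log2 difference, treated minus untreated, with its standard error from limma (horizontal axis) for the 14 probe sets, in ALCL lines (red, upper) and T-cell lines (blue, lower). Filled points have an adjusted p below 0.05. MYB 204798_at lies near -3 in both cell types, LMO2 and NOTCH1 lie left of 0 in T-cell lines, and 2 probe sets of HES1 lie on opposite sides of 0 in T-cell lines.

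Counted over the 8 measured genes at 1 probe set per gene, treatment of ALCL lines lowered 1 (MYB) and raised 0, against 13.4% of all genes called lower and 8.04% called higher. Treatment of T-cell lines lowered 4 (MYB, LMO2, NOTCH1 and, through 203395_s_at alone, HES1, whose 203394_s_at rose) and raised 0, against 20.2% of all genes called lower and 21.7% called higher. The median log2 difference of the 8 was 0.03 in ALCL lines (all genes 0.09) and -0.48 in T-cell lines (all genes 0.14). The effects differed between ALCL and T-cell lines in 1 gene, LMO2, against 1.11% of all genes with a higher effect in ALCL lines and 0.568% with a lower one. Untreated ALCL lines were lower than untreated T-cell lines in 3 (LMO2, TAL1 and NOTCH1), against 5.58% of all genes lower and 3.18% higher. Treated ALCL lines were lower than treated T-cell lines in 1 (MYB), against 1.53% lower and 1.35% higher. Comparisons that share arrays are not independent of each other.

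The scale of the arrays bears on these directions. When each array was centred on its hybridisation spikes, the median of all genes for treatment in T-cell lines was -0.54, against 0.14 on the deposited scale, and in ALCL lines -0.52, against 0.09. The calls over all genes were then 73 higher and 1974 lower for ALCL treatment and 63 higher and 2943 lower for T-cell treatment, against 962 and 1604, and 2601 and 2417, on the deposited scale. For the difference between effects the calls were 49 higher and 15 lower, against the 1.11% and 0.568% of 11963 genes above. Between untreated cell types they were 565 higher and 188 lower in ALCL lines, against 380 and 668, and between treated ones 272 and 21, against 162 and 183. Centring on array medians gave 1533 higher and 2721 lower for T-cell treatment. MYB, LMO2 and NOTCH1 were called lower in T-cell lines on both of these scales.

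Other genes of the Notch pathway were read by their roles. Counts over these lists stand beside 8.04% of all genes called higher and 13.4% called lower for ALCL treatment, and 21.7% and 20.2% for T-cell treatment. Of 4 measured ligands, JAG2 rose in T-cell lines (mean 8.39 treated and 7.32 untreated, difference 1.07 ± 0.15, adjusted p = 0.000804), and 0 were called in ALCL lines by limma, 1 of them at an unadjusted p under 0.05. JAG2 was 0.39 and not called when arrays were centred on the spikes. Of 8 measured genes of receptor cleavage, 1 fell and 0 rose in ALCL lines, and 3 fell and 2 rose in T-cell lines, of which the 1 of 8 and the 2 of 8 are near those shares. APH1A, a subunit of the gamma-secretase that releases the intracellular domain, fell in both (-1.11 ± 0.17, adjusted p = 0.00185 in ALCL lines, and -0.94 ± 0.17, adjusted p = 0.00252 in T-cell lines). PSEN2, a catalytic gamma-secretase subunit, and APH1B rose in T-cell lines by 0.57 ± 0.20 and 0.37 ± 0.12, but turned to -0.11 and -0.32 under spike centring, and were 0.24 and 0.21, not called, with CCRF-CEM and Jurkat alone.

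Among 4 glycosylation genes, MFNG, a Fringe enzyme that sets which ligands a receptor answers to, fell in both cell types. It averaged 8.23 in treated and 9.93 in untreated ALCL lines (-1.70 ± 0.23, adjusted p = 0.00111), and 7.53 in treated and 9.18 in untreated T-cell lines (-1.65 ± 0.23, adjusted p = 0.000720). The ALCL difference in Karpas 299 alone was -1.14 (adjusted p = 0.166).

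Of 13 measured genes of the nuclear complex and its corepressors, 2 fell and 0 rose in ALCL lines (median -0.28), and 7 fell and 0 rose in T-cell lines (median -0.48). The ALCL count is near the share of all genes called lower. With CCRF-CEM and Jurkat alone, 2 fell in T-cell lines, where 995 of 11963 genes were called lower. After quantile normalization 4 fell, where 1817 of all genes were called lower, against 2417 in the main fit. SNW1, a coactivator that binds the Notch complex, fell in both types (-0.72 ± 0.20 in ALCL lines, adjusted p = 0.0313, and -1.09 ± 0.20 in T-cell lines, adjusted p = 0.00303). CTBP1, a corepressor, fell by 0.82 in ALCL lines and by 1.00 in T-cell lines (adjusted p = 0.0265 and 0.00722). TLE3, a Groucho-type corepressor, and the acetyltransferase KAT2A fell in T-cell lines (-0.89 ± 0.20 and -0.64 ± 0.16). With CCRF-CEM and Jurkat alone, CTBP1 was -0.73 (adjusted p = 0.0532) and KAT2A -0.55 (adjusted p = 0.163), neither called.

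Of 14 measured Notch target genes of T cells and T-cell leukaemia, 2 rose and 2 fell in ALCL lines, and 2 rose and 5 fell in T-cell lines. The 5 include HES1 through 203395_s_at alone, while its 203394_s_at rose. The 2 that fell in ALCL lines and the 2 that rose in T-cell lines are near or under the shares of all genes. HEY1, a repressor related to HES1, rose in both (0.70 ± 0.14, adjusted p = 0.00803 in ALCL lines, and 1.16 ± 0.14, adjusted p = 0.000416 in T-cell lines), and was 0.09 and 0.48, not called, under spike centring. In Karpas 299 alone HEY1 was at 0.42 and not called. MYC, a growth-promoting transcription factor, fell 3.22-fold in ALCL lines (mean 8.40 treated and 10.09 untreated) and 15.1-fold in T-cell lines (6.81 treated and 10.73 untreated; adjusted p = 0.0163 and 0.000187). In Karpas 299 alone MYC was at 0.03. SKP2, which marks cell-cycle inhibitors for degradation, fell by 1.61 in ALCL lines and by 1.56 in T-cell lines (adjusted p = 0.000129 and 9.2e-05). LEF1, a T-cell factor of the TCF family, fell 6.59-fold in T-cell lines (-2.72 ± 0.40, adjusted p = 0.000925). TRIB2, a pseudokinase, rose in ALCL lines (0.89 ± 0.24, adjusted p = 0.0248; 0.29 under spike centring and 2.00 in Karpas 299 alone, neither called). Of 7 genes of Notch turnover, DTX4, a relative of DTX1, rose in both (0.46 ± 0.12 and 0.73 ± 0.12 in ALCL and T-cell lines, but -0.14 and 0.05 under spike centring).

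The partners of TAL1 and MYB were read the same way. Of 12 measured TAL1 partners, 1 rose and 1 fell in ALCL lines, near the 8.04% and 13.4% of all genes. In T-cell lines 0 rose and 5 fell, against 21.7% and 20.2%. After quantile normalization 2 fell, where 1817 of 11963 genes were called lower. With CCRF-CEM and Jurkat alone 2 fell and 1 rose, where 995 of all genes were called lower and 501 higher. TCF12, an E-protein that pairs with TAL1, fell 4.12-fold in T-cell lines (-2.04 ± 0.39, adjusted p = 0.00324). CBFB, the partner of RUNX factors, fell in both (-1.06 ± 0.19, adjusted p = 0.00399 in ALCL lines, and -1.52 ± 0.19, adjusted p = 0.000430 in T-cell lines), and in Karpas 299 alone it was -0.45 (adjusted p = 0.597). SSBP2, which stabilises LDB1 in the complex, rose in ALCL lines (0.93 ± 0.17) and fell in T-cell lines (-0.60 ± 0.17; 0.48 and -0.31, not called, without the lines with the 28S rise), and the difference of 1.53 ± 0.24 was itself called (adjusted p = 0.0127; 0.516 under spike centring and 0.409 without the lines with the 28S rise). Untreated SSBP2 was lower in ALCL than in T-cell lines (-2.65, adjusted p = 0.00197), so its 2 treatment effects started from unlike levels. GATA3, a T-cell factor that binds with TAL1, was lower in ALCL lines both treated (8.08 and 10.07, difference -1.99 ± 0.29, adjusted p = 0.00801) and untreated (7.34 and 10.35, difference -3.01 ± 0.40, adjusted p = 0.00408). With Karpas 299 as the only ALCL line, beside CCRF-CEM and Jurkat, the GATA3 differences were -2.58 and -3.58, a fit that cannot decide whether the calls hold.

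Of 7 genes of the MYB family and its coactivators, 1 rose and 2 fell in ALCL lines, against 8.04% and 13.4% of all genes. In T-cell lines 1 rose and 5 fell, against 21.7% and 20.2%. With CCRF-CEM and Jurkat alone 2 fell and 0 rose, where 995 of 11963 genes were called lower and 501 higher. MYBL2, the family member tied to cell division, fell in both (-1.72 ± 0.16 and -0.90 ± 0.16 in ALCL and T-cell lines, adjusted p = 0.000211 and 0.00239). MYBL1 went the other way in T-cell lines (6.97 treated and 5.62 untreated, difference 1.35 ± 0.26, adjusted p = 0.00337; 0.67 and not called under spike centring, and 1.51 and not called with CCRF-CEM and Jurkat alone). The coactivator EP300 fell in T-cell lines (-0.72 ± 0.19, adjusted p = 0.0147) and was -0.32 with CCRF-CEM and Jurkat alone (adjusted p = 0.231). The list of 13 transcription factor oncogenes of T-cell leukaemia holds 5 of the 8 genes followed here. In ALCL lines 2 of the 13 fell and 0 rose, and in T-cell lines 3 fell and 1 rose. The 2 and the 3 that fell are near the 13.4% and 20.2% of all genes called lower. The 1 that rose is under the 21.7% called higher. The riser was LMO3 (0.46 ± 0.15, adjusted p = 0.0324), which was -0.22 under spike centring and 0.27, not called, with CCRF-CEM and Jurkat alone.

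**Figure D4:**
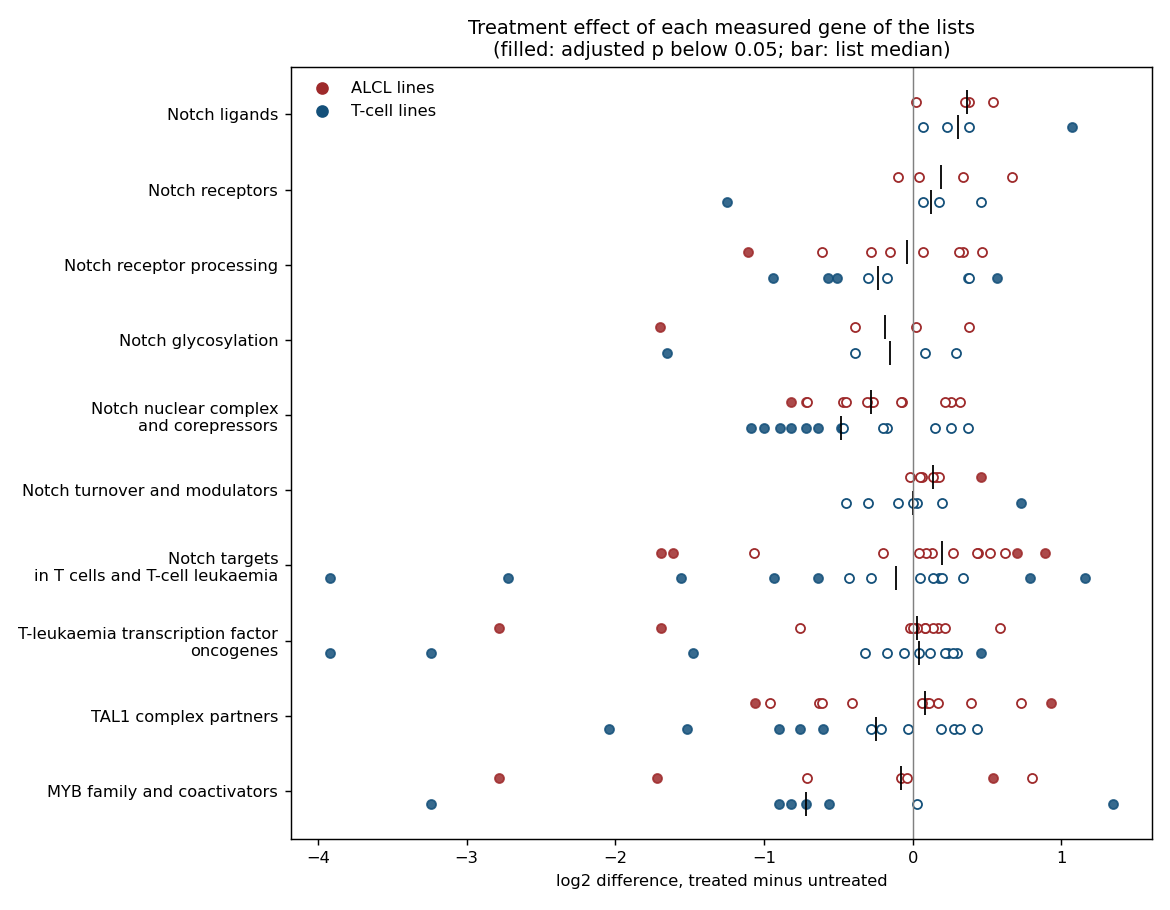
Treatment effect as log2 difference, treated minus untreated (horizontal axis), of each measured gene of the 10 lists, in ALCL lines (red, upper row) and T-cell lines (blue, lower row). Filled points have an adjusted p below 0.05 and black bars are list medians. The filled points of the nuclear complex list all lie left of 0, and MYC and MYB lie farthest left.

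Without treatment, 2 of 8 measured genes of receptor cleavage were higher in ALCL lines and 1 was lower. The other 5 were not called. Of all genes, 3.18% were called higher in ALCL lines and 5.58% lower. PSEN2 (7.34 in ALCL and 5.91 in T-cell lines, difference 1.43 ± 0.16, adjusted p = 0.00185) and the convertase FURIN, which cuts the receptor during its transport (9.54 and 7.56, difference 1.98 ± 0.31, adjusted p = 0.00842), were higher in ALCL lines. ADAM10, the protease that makes the ligand-dependent cut, was lower (9.22 and 10.49, difference -1.27 ± 0.25, adjusted p = 0.0191; not called under spike centring, adjusted p = 0.316). Without the lines with the 28S rise the differences were 1.65, 2.66 and -0.84 for PSEN2, FURIN and ADAM10, none of them called.

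The genes whose values ran most like each of the 8 were found by Pearson's r over the 16 arrays, which share lines and treatment. LMO2 ran with TRAT1 (r = 0.959) and CD3G (0.954), both parts of or linked to the T-cell receptor, and with OGN (0.949). MYB ran with HIRIP3 (0.956), USP13 (0.942) and CCDC22 (0.926). NOTCH1 ran with TRRAP (0.906), ZNF512B (0.894) and CBLL1 (0.891). TAL1 216925_s_at ran with SPARC (0.929), BCL7A (0.909) and EMSY (0.893), and HES1 203395_s_at with IQGAP2 (0.901), VPS37B (0.885) and MLYCD (0.849). For NOTCH3, LMO1 and LYL1 the highest were IGLL5 (0.846), HOXD10 (0.841) and KIR2DL3 (0.844).

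TAL1 and LMO2 are also used by red cells, megakaryocytes and endothelium, so markers of those cells were read beside them. The mean of 12 measured of 17 erythroid and megakaryocyte markers was 7.05 to 7.38 in treated and 6.90 to 7.24 in untreated ALCL lines, and 7.05 to 7.34 in treated and 6.85 to 7.01 in untreated T-cell lines. Of the 12, 3 rose and 1 fell in treated T-cell lines by limma, near or under the 21.7% of all genes called higher and 20.2% called lower. The 7 endothelial markers averaged 5.71 to 6.28 in treated and 5.81 to 6.07 in untreated ALCL lines. In T-cell lines they averaged 5.83 to 6.21 treated and 5.70 to 5.96 untreated. With treatment of T-cell lines 2 of the 7 rose and 1 fell, also near or under these shares.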

How the data were processed

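Expression was measured on 16 Affymetrix HG-U133A arrays, 1 per line and condition. Per the submitters' processing notes, RMA in R 2.10.1 gave the deposited log2 values. The number of arrays limits the precision, and detection calls were not used here. Of 22283 probe sets, 19065 had 1 gene symbol in the platform annotation, 1043 several, 2107 none listed, and 68 were controls. A gene was read by its probe set with the highest mean (4310 genes had several), and each of 22215 probe sets was also tested by itself. Of the 11963 genes, 11955 were in a RefSeq gene table.

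Differences were tested two-sided with limma 3.58.1 (lmFit, eBayes) in R 4.3.3, Benjamini-Hochberg adjusted over all genes or all probe sets, and called below 0.05. Treatment effects and their difference came from 1 fit with the line as a block (6 residual degrees of freedom), and comparisons between cell types from 8 arrays each. The labels give the same line treated and untreated. Deviations from the group means correlated at 0.33 (Molt-4) to 0.643 (SU-DHL-1) between the untreated and treated array of a line. Untreated Molt-4 correlated more with the treated array of another T-cell line (0.399) than with its own. In every other line the own treated array gave the highest value. A 28S rise is a control value over 10 SD above the mean of the untreated arrays. The script was tested on simulated data.

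The genes and lists were chosen with earlier results of these data known. Named are all 9 genes, up to 4 genes of each list with the smallest adjusted p in a comparison, list genes called in both treatment comparisons, and the 3 genes most like each of the 8. Alternatives were other scalings, probe set rules, a filter on the lowest 40% of genes, other line terms, an intensity trend, and lines left out or averaged.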

Additional observations from a re-analysis of the deposited data

Results flagged for a closer look

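In 56 groups of 4 arrays, 5 held an array whose gap to the nearest other, divided by the group's range, was above Dixon's 95% critical value. Chance flags about 1 in 20 groups.

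Treated JB6 stood at 6.15 for NOTCH1, against 7.58 to 7.67 in the other 3 treated ALCL lines (ratio 0.938). FE-PD gave the other 4. Untreated FE-PD had 7.68 on HES1 203394_s_at, against 5.57 to 5.73 in the other untreated ALCL lines (0.925), and treated FE-PD had 8.58 on HES1 203395_s_at, against 7.43 to 7.56 (0.887). On TAL1 216925_s_at FE-PD had 7.46 treated, against 7.65 to 7.66 (0.940), and 7.69 untreated, against 7.54 to 7.55 (0.894), gaps of under 0.25 log2 units.

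The treatment effect on LMO2 differed between ALCL and T-cell lines by 1.49 (limma adjusted p = 0.0170), with falls in 4 of 4 T-cell lines and changes in both directions in the ALCL lines.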

How the results depend on the processing

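Over 70 results, 1207 alternative values were computed: 1128 kept their side of the threshold (94 of them changed sign while not called), 70 lost a call, 8 gained one and 1 reversed, HES1 203395_s_at in T-cell lines (0.47 with the mean of probe sets). For T-cell treatment 4 of the 8 genes were called, and 3 with no replicate block, that is without pairing by line. The count was 3 to 5 over all alternatives. NOTCH3 was gained after quantile normalization, TAL1 was gained and HES1 lost both without CCRF-CEM and with the mean of probe sets, and NOTCH1 was lost without the lines with the 28S rise. For ALCL treatment 1 was called, against 2 with the mean of probe sets and 0 by limma without the lines with the 28S rise (2 at an unadjusted p under 0.05). For the difference between effects, 1 was called, against 0 with the lowest 40% of genes removed (which removes LMO2, LMO1 and LYL1), 0 with spike centring, 0 without the lines with the 28S rise (2 at an unadjusted p under 0.05 in each) and 0 with Molt-3 and Molt-4 averaged (3 unadjusted); leaving out 1 line gave 0 to 1. Between untreated cell types, 3 were called, against 0 without the lines with the 28S rise (2 unadjusted), 1 with Molt-3 and Molt-4 averaged, and 1 to 3 with 1 line left out. Between treated cell types, 1 was called, against 0 with the mean of probe sets (2 unadjusted), 0 with Molt-3 and Molt-4 averaged (2 unadjusted), 0 with spike centring and 0 without the lines with the 28S rise (0 unadjusted in each), and 0 to 1 with 1 line left out. Among the lists, without the block 3 genes of the nuclear complex and 2 partners of TAL1 fell in T-cell lines, against 7 and 5 with it. Over all genes, 1774 of 11963 were called lower without the block, against 2417 with it. Dropping lines leaves fewer samples by construction; other causes were not tested. Under spike centring the all-gene median was 0.38 between untreated cell types and 0.39 between treated ones.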

Other observations

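Treated JB6 stood apart in several of these genes. It held the highest ALCL values of TAL1 on 206283_s_at (6.03) and on 216928_at (6.14), the largest ALCL change of HES1 203394_s_at (2.32) and the lowest value of NOTCH1 (6.15). LYL1 was higher by 0.66 in treated JB6 and changed by -0.52 in treated FE-PD. On TAL1 216925_s_at treated JB6 (7.65) did not stand apart from treated SU-DHL-1 (7.65) and Karpas 299 (7.66). Each of these rests on 1 array, and treated JB6 was among the 5 arrays with the 28S rise. Its 3' less 5' difference of ACTB (0.70) was the highest of the 16 arrays, and its part was not tested.

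SU-DHL-1 had the lowest untreated MYB value (8.17, against 10.44 to 11.27 in the other untreated ALCL lines), yet its treated value of 7.15 lay close to those of FE-PD (7.31) and JB6 (7.27).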
